A study of Mus musculus with 4 samples.

Results

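Natural dense arrays of CTCF summits are places outside the edited HoxB locus where the CTCF peak list of a mouse embryonic stem cell (mESC) line holds several summits close together, as an inserted array of CTCF sites does. A summit is the position of the highest signal in a peak. The arrays were chosen in the list of the line with the complete inserted array (the Ins list), on autosomes other than chromosome 11. Successive summits at most 1000 bp apart were joined, and a group was kept when it held at least 4 summits in at least 3 separate peak intervals. The rule gave 58 arrays with 254 summits, out of 81054 summits and 71392 groups on these autosomes and 93969 peaks in the whole Ins list. The members were thus chosen by the summit positions and intervals of the Ins list, and their number, spacing, pileup and background in that list are a description with no test.

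CUT&RUN frees the stretches that a protein covers by means of an antibody and a tethered nuclease. It was done with an antibody against CTCF on 4 mESC lines, with 1 library per genotype. In all 4 lines a chromosome 11 with the HoxB deletion Del faced a chromosome 11 that combined Del(i9-13) with the insertion Ins(CBS5-10), an array of CTCF binding sites. In the line of the Del(CBS8-10) list, the inserted array had in addition lost CBS8-10 by Del(CBS8-10). In the line of the Inv list, the array was turned round by Inv(CBS5-10). In the line of the Inv:Del(CBS7-10) list, it carried both Inv(CBS5-10) and the deletion Del(CBS7-10). In the line of the Ins list the array was complete. Whether a line is 1 clone is not stated in the sources used here. The edits lie on chromosome 11, so the natural arrays have the same place in all 4 lines.

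CTCF is a zinc-finger protein that reads a directional DNA motif and halts cohesin, the ring complex that extrudes chromatin loops. Its sites form the anchors of loops and the borders of chromatin domains, and insulators between an enhancer and a promoter often hold several CTCF sites in tandem. CTCF sites in series are known from Hox clusters, imprinted loci and protocadherin clusters.

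The 5 stretches that follow are shown because an array summit lies in or next to each of them, at a gene start and close to a CTCF-like match, and because that summit was present in every list. They were picked for this from 9 genes with such a match. They come from the RefSeq promoter table of build GRCm38.p6, which holds windows of 300 bases, 250 before and 50 after a gene start. Each is printed 5′ to 3′ on the strand of its gene, and capitals mark a match on either strand to 1 of 2 motifs. The core motif was CC, any 3 bases, AG, any 2 bases and GGC, and the shorter motif, chosen after the sequences had been seen, was CC, any 3 bases and AGGGG. The motifs can overlap. Alyref2 belongs to the family of mRNA export factors, Mob3b encodes a MOB protein, AI506816 is a noncoding transcript, Chd1l encodes a chromatin remodelling enzyme and Zc3h7a a zinc-finger protein.
Alyref2, chr1:171503378-171503477, plus strand: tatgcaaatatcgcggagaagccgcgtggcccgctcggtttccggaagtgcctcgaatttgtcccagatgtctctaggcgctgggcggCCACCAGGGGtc
Mob3b, chr4:35157485-35157584, minus strand: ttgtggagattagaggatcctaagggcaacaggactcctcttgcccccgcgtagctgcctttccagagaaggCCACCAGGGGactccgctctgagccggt
AI506816, chr5:23712764-23712863, minus strand: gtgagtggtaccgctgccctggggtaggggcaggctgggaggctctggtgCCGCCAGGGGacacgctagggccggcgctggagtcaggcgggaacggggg
Chd1l, chr3:97610191-97610290, minus strand: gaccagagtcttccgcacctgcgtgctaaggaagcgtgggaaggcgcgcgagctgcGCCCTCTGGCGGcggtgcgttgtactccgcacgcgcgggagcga
Zc3h7a, chr16:11176342-11176441, minus strand: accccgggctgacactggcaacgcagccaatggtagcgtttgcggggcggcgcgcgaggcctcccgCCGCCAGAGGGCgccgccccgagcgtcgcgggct

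The centre of the match lay 39.5 bp from an array summit at Alyref2, 13.5 bp at Mob3b, 31.5 bp at AI506816, 42.5 bp at Chd1l and 19.5 bp at Zc3h7a. The 10 capital letters are the same at Alyref2 and Mob3b. Read along the motif, the 12 letters at Chd1l, whose match is on the other strand, are the same as those at Zc3h7a (CCGCCAGAGGGC). Of the 4 genes not shown, Abtb2, Iqgap2 and Gm3636 had their summit in 2 of the other 3 lists and Eif2b5 in 0, and the match at Gm3636 was 7.5 bp from its summit. Of 21 different promoter windows with an array summit, 3 (14.3%) held the core motif, against 18.8% of 5207 windows with any Ins summit and 8.66% of all 29076 windows on these autosomes. Of these 3, 2 are overlapping windows of Zc3h7a that share the same match, so that there were 2 separate matches. None of the 21 held a stricter form of it with CCA at its start, which was in 5.99% of windows with an Ins summit and in 2.42% of all windows. The shorter motif was in 7 of the 21 (33.3%), against 14.6% and 7.47%. Since it was chosen after the sequences had been seen, that difference is no test. These are counts of letters in promoter windows, which held a summit of 17 of the 58 arrays, and sequence elsewhere in the arrays was not used here.

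Most natural arrays were short and had few members. There were 44 with 4 summits, 11 with 5, and 1 each with 6, 8 and 9. They filled 3 intervals in 40 cases, 4 in 16 and 5 in 2, so that neighbouring summits often shared an interval. In 13 arrays every summit had an interval of its own. No group of 6 or more summits on these autosomes had each summit in its own interval, whereas the inserted array had 6 summits in 6 intervals. Chromosomes 4 and 7 held 7 arrays each, and chromosomes 9, 16 and 17 held 6 each. The remaining arrays lay on 12 further autosomes with at most 4 arrays each.

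**Figure D1:**
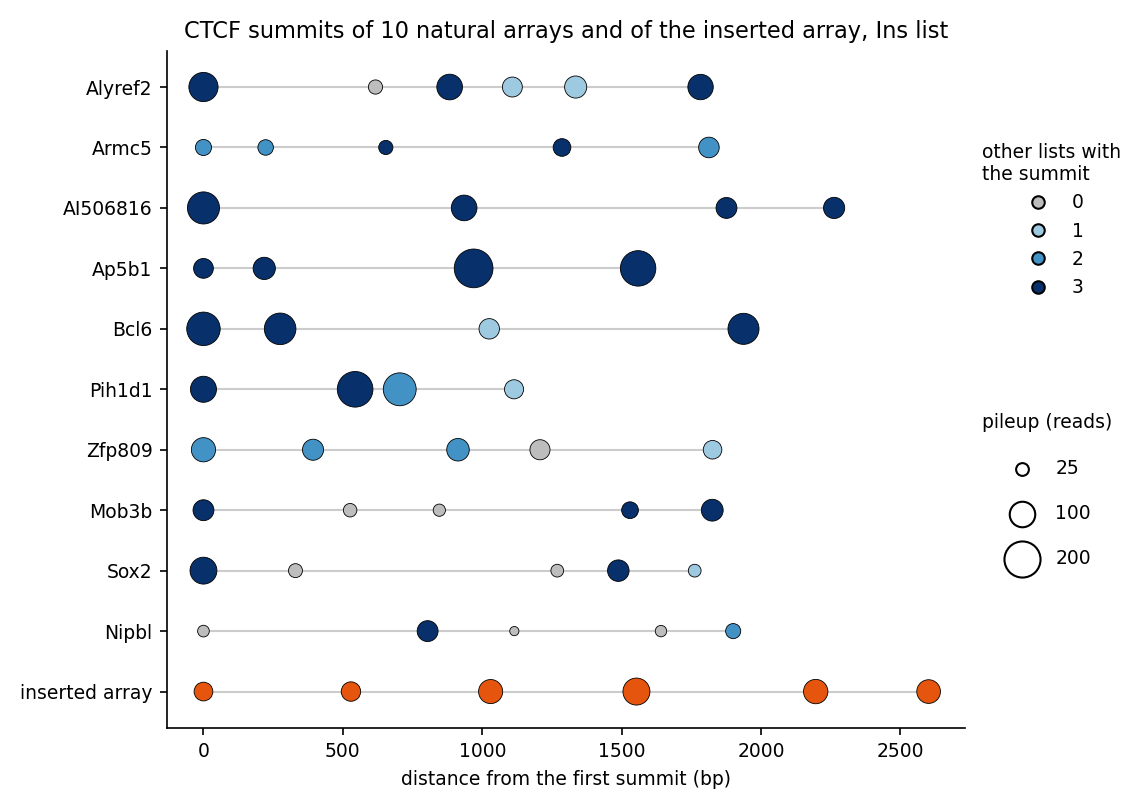
Summits of 10 natural arrays, named by a gene at or near them, and of the inserted array (orange), by distance in bp from the first summit of the array. Circle area is the pileup in the Ins list, and the blue shade is the number of the other 3 lists with a summit within 100 bp. Strong summits tend to be dark and weak ones pale or grey, and the 6 inserted sites are more alike in size than most natural ones.

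In spacing, the inserted array lay within the range of the natural ones but near its upper end in length. The span from first to last summit ran from 782 bp (near Cemip) over a median of 1702 bp to 3253 bp (near Trappc6b), and the inserted array measured 2601 bp, which 2 natural arrays exceeded. The median distance between neighbouring summits of an array was 483 bp at the median array (range 266 to 935 bp), and 523 bp in the inserted array. Not counting the first summit, natural arrays held 2.01 summits per kb at the median (1.18 to 3.84), and the inserted array 1.92. Of the 196 natural distances, 5 were under 200 bp, 78 were from 200 to under 400 bp, 72 were from 400 to under 700 bp and 41 were 700 bp or more. The 5 distances of the inserted array were 529, 501, 523, 643 and 405 bp, all from 400 to under 700 bp. The natural distances had a median of 446.5 bp, and all 9662 distances of at most 1000 bp on these autosomes a median of 363 bp. Of the 196 distances, 6 exceeded 950 bp, close to the limit of 1000 bp in the rule.

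Summits within a natural array differed widely in strength. The weakest summit of an array had a pileup (the number of reads over the summit) of 0.317 times that of the strongest at the median array, with a range of 0.144 to 0.895. The inserted array, with pileups of 54, 58, 89, 112, 91 and 86 from the Hoxb13 side, had a ratio of 0.482, and 10 natural arrays were more even. The median ratio was 0.322 in 914 groups of 3 summits and 0.500 in 7358 groups of 2. The most even natural array lay within Cpne5, with pileups between 17 and 19, and was chosen after its values were seen. The strongest summit stood at an end of the array in 34 cases and inside it in 24.

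Pileup in the natural arrays was mostly below that of the inserted array. By the genotypes, the inserted array was on a single copy of chromosome 11, whereas natural arrays lie on both copies of their autosomes. The levels given here are not per copy, and the part of copy number was not tested. The median pileup of an array was 37.8 reads at the median array (14 to 2306), against 87.5 in the inserted array, which 9 natural arrays exceeded. The local background, the reads per position that the peak caller took as unspecific, was 6.41 at the median array (2.43 to 569.3) and 13.6 in the inserted array, which 12 exceeded. Pileup over background was 5.83 (2.08 to 9.77) and 6.44, so that once divided by its background the inserted array lay closer to the natural ones, with 20 above it. The authors' fold, computed with a constant of 1 added to pileup and background, was 5.19 (2.08 to 9.18) against 6.07. The −log10 q was 15.3 (3.36 to 643.7) against 38.1, with 10 natural arrays above it.

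**Figure D2:**
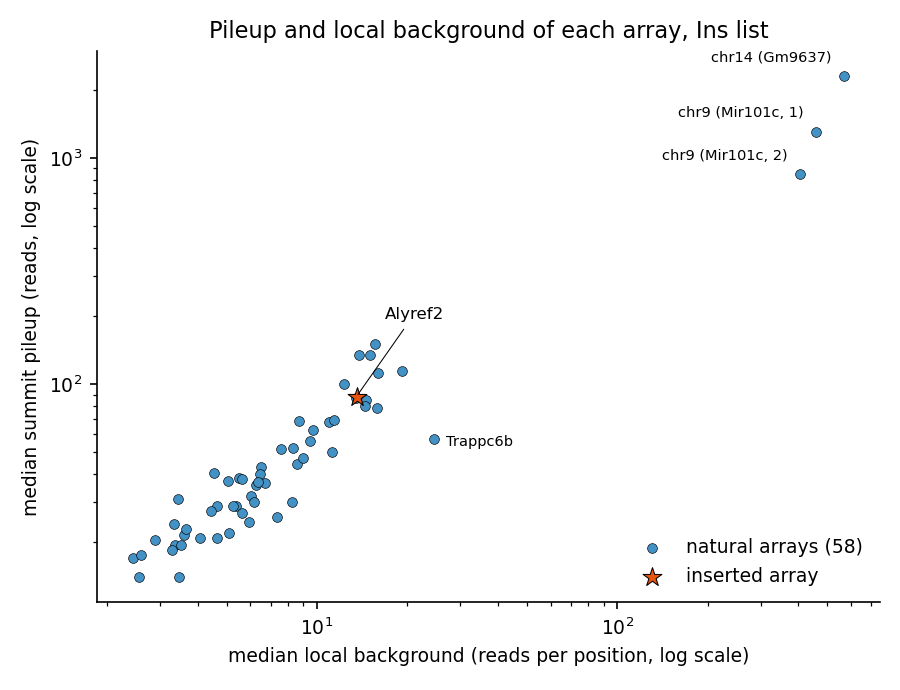
Median pileup against median local background of the 58 natural arrays (blue) and of the inserted array (star), both in reads and on log scales, Ins list. Pileup and background are high together, the Alyref2 array coincides with the inserted one, and 3 arrays with a background above 100 lie far from the rest. Levels are not given per chromosome copy.

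The array at the start of Alyref2 resembled the inserted array in its number of summits and, without regard to copy number, in its level. It was the only natural array with exactly 6 summits, at chr1:171501727-171503510, in 3 intervals. Its median pileup was 87 and its median background 13.4, against 87.5 and 13.6 in the inserted array. It was denser, with a span of 1783 bp and a median distance of 266 bp, the smallest of all 58. In order along the chromosome, its summits found again had pileups of 66, 51, 30 and 61 in the Del(CBS8-10) list, 28, 43 and 30 in the Inv list and 147, 203, 90 and 136 in the Inv:Del(CBS7-10) list, against 131, 31, 101, 61, 75 and 99 for all 6 in the Ins list. The summits of 131, 101 and 99 were in every list, those of 61 and 75 in 1 other list each, and the weakest in none.

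The local background itself moved with the number of summits. It was lowest for summits that stood alone, with a median of 1.68, and was 3.28 in groups of 2, 5.02 in groups of 3 and 6.52 over the 254 summits of natural arrays. In 89 groups with 4 or more summits in under 3 intervals it was 7.54. Over the same classes the median pileup was 25, 31, 37, 41.5 and 45, and the median fold 9.15, 7.46, 6.31, 4.76 and 4.90. Summits in dense groups thus had more reads and a lower fold than summits that stood alone.

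The background had the steps of a count of reads around the peak, and the summits of an array lay within its reach. Every background above the genome value in the Del(CBS8-10), Inv:Del(CBS7-10) and Ins lists, and 99.9% in the Inv list, was a whole multiple of 0.02 (tolerance 0.0005). That is the step of a count over 10 kb with reads counted as 200 bases long, although the peak caller's settings are not stated in the sources used here. The count was never below the pileup of a neighbouring summit of 100 or more reads that lay 1000 to 4800 bp away, in 0 of 1833, 1528, 1416 and 1107 pairs by rising distance. It was below in 33.4% of 1531 pairs 5200 to 6000 bp apart. The summed pileup of an array's own summits came to 58.7% of that count at the median array (20.3 to 74.8%), and to 72.1% in the inserted array, with 490 of 679.5 reads. The share was higher in 3 natural arrays, those at Ap5b1 (74.8%), at Alyref2 (74.2%) and on chromosome 14 near Gm9637 (73.3%). Among groups whose background exceeded the genome value, it was 33.7% for summits that stood alone, 50.0% in groups of 2, 56.7% in groups of 3 and 63.2% in groups of 4 or more in under 3 intervals. Summits closer than the length of a read share reads. In the sum of an array, a summit less than 200 bp from a stronger one already counted was therefore left out.

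**Figure D3:**
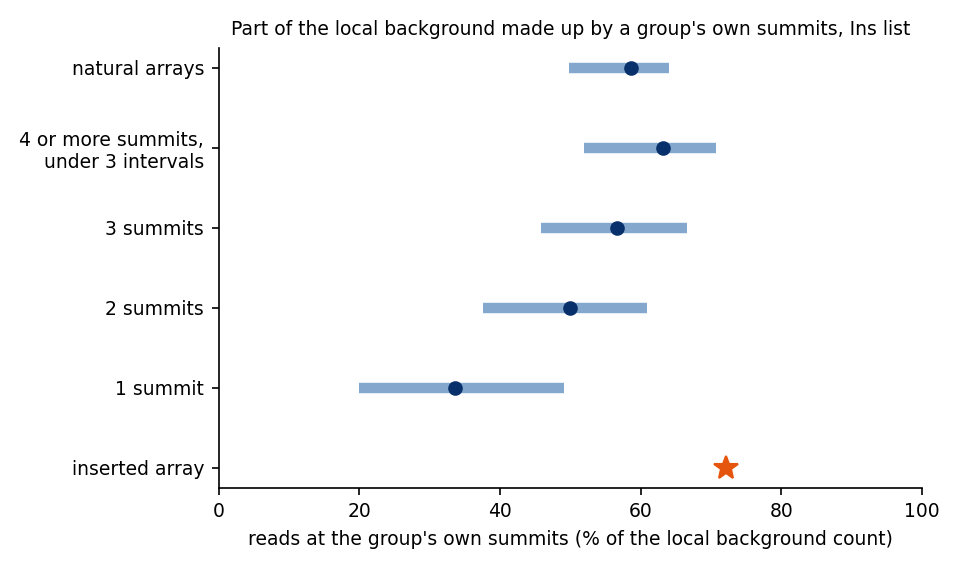
Reads at a group's own summits as a percentage of the reads in the local background count, by number of summits, Ins list. Points are medians and bars run from the lower to the upper quartile, and the star is the inserted array at 72.1%, right of the bars of all classes. The share is higher in natural arrays (median 58.7%) than for summits that stand alone (33.7%).

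In the other lists, the share of natural array summits found was below the share over all summits. A summit within 100 bp was present for 150 of the 254 in the Del(CBS8-10) list (59.1%, 95% Wilson interval 52.9 to 64.9), where 64.9% of all Ins summits on these autosomes were found. The Inv list held 114 (44.9%, 38.9 to 51.0), where 56.1% of all were. The Inv:Del(CBS7-10) list held 171 (67.3%, 61.3 to 72.8), where 76.3% of all were. In every other list at the same time 89 were found (35.04%, 29.4 to 41.1), where 47.8% of all were. The intervals cover counting error only, the summits of 1 array are not independent, and with 1 library per genotype there is no test between lines. For summits that stood alone the shares were 66.0%, 57.0% and 77.7% in the 3 lists, and for the 369 summits of groups with 4 or more in under 3 intervals 57.5%, 52.6% and 72.4%.

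The array summits had a lower −log10 q than all summits, and at like −log10 q their shares found differed by list. Their median −log10 q was 14.5, against 18.05 over all summits. Of the 254, 98 had a −log10 q under 10, of which 17.3%, 16.3% and 40.8% had a match in the lists Del(CBS8-10), Inv and Inv:Del(CBS7-10), against 24.7%, 20.0% and 45.6% of other summits of that strength. From 10 to 20 the shares were 66.1%, 41.1% and 67.9% of 56 array summits, against 60.9%, 42.9% and 78.9%. From 20 to 50 the shares were 91.5%, 63.8% and 89.4% of 47 array summits, against 92.1%, 74.4% and 96.6%. From 50 to 100 they were 100%, 88.5% and 96.2% of 26 array summits, against 99.6%, 96.9% and 99.6%. At 100 or more they were 100%, 81.5% (interval 63.3 to 91.8) and 96.3% of 27 array summits, against 99.6%, 99.1% and 99.6%. In the Del(CBS8-10) list the array summits were therefore close to others of like −log10 q above 10. In the Inv and Inv:Del(CBS7-10) lists their share was below that of other summits in every bin of −log10 q. The widest gap was for the strongest summits in the Inv list. Of the 5 strong summits missing there, 4 lay in the 3 arrays with a background above 100 and 1 at Pih1d1. In the arrays with a background up to that of the inserted array, 6 of 6 summits of this strength were in the Inv list. In the arrays above it 16 of 21 were, among them the Pih1d1 array with a median background of 13.8 against 13.6. This limit was chosen with the data in view.

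**Figure D4:**
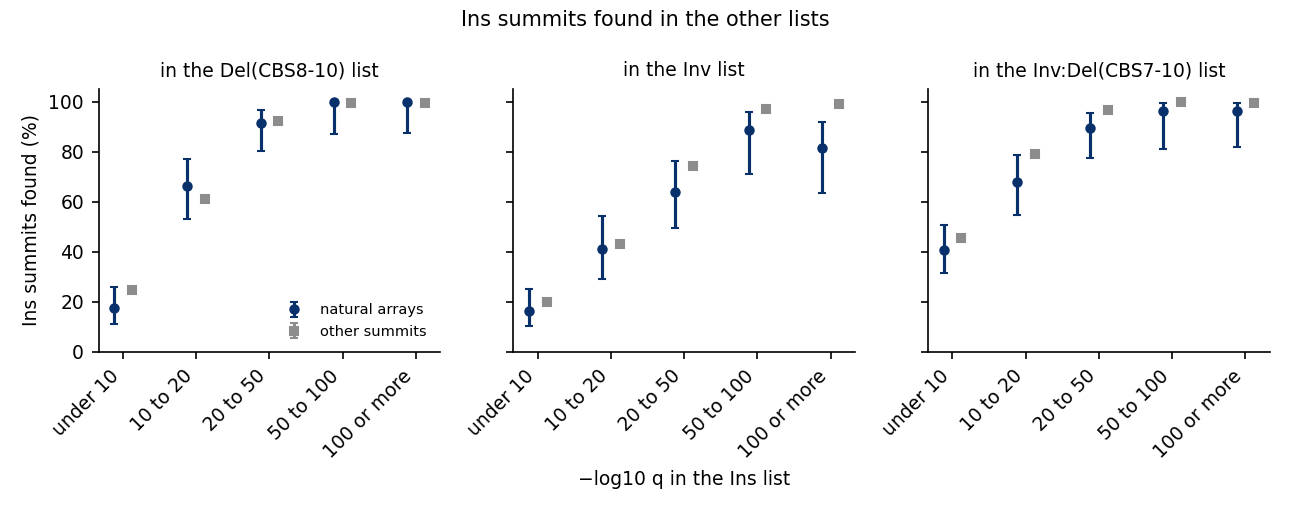
Share of Ins summits with a summit within 100 bp in each other list (percent), by −log10 q in the Ins list, for the 254 natural array summits (circles) and for other summits of the same autosomes (squares), with 95% Wilson intervals. Shares rise with −log10 q up to the bin from 50 to 100 in each panel, and the strongest array summits stand at 81.5% in the Inv list against 99.1% of other summits.

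Within an array, the strongest summit was the one most often found again. The Del(CBS8-10) list held it for 53 of 58 arrays (91.4%), the Inv list for 38 (65.5%) and the Inv:Del(CBS7-10) list for 50 (86.2%). The same 3 lists held the next strongest for 45, 36 and 48 arrays (77.6%, 62.1% and 82.8%). Of the 138 weaker summits, 52 (37.7%), 40 (29.0%) and 73 (52.9%) were found. Over all Ins summits of these autosomes the shares were 64.9%, 56.1% and 76.3%. The median −log10 q of these ranks was 51.2, 19.4 and 7.85. Summits outside arrays with a −log10 q from 50 to 100 were found at 99.6%, 96.9% and 99.6%, a range that held only part of the strongest array summits. The strongest summit was in every other list for 36 arrays and the weakest for 7, where 47.8% of all Ins summits were.

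As whole arrays, few natural arrays formed again under the same rule in another list. The Del(CBS8-10) list had 16 of the 58 (27.6%), the Inv list 6 (10.3%) and the Inv:Del(CBS7-10) list 15 (25.9%), where the shares over all Ins groups were 0.0406%, 0.0224% and 0.0672%. They were 16 of 30, 6 of 15 and 15 of 47 groups that met the rule in those lists. Of the 89 groups with 4 or more Ins summits in under 3 intervals, 6, 3 and 6 met it there, and of the 914 groups of 3 summits 6, 5 and 12. In 34 arrays no other list met the rule, in 14 arrays 1 list did, in 7 arrays 2 lists did and in 3 arrays all 3 did. At least 3 summits lay within the span of 29, 18 and 39 arrays in the same 3 lists. No summit at all lay within the span of 0, 6 and 1 arrays, the 6 of the Inv list being those near Gm40113, Gm42354, Spsb2, Mir101c, Dip2c and 2700054A10Rik. The inserted array had 6 summits in the Ins list. Where sites of it had been deleted, 3 summits remained with Del(CBS8-10) and 2 with Inv:Del(CBS7-10). The genotype of the Inv line names no deletion within the array, yet its list held 3. That list also had the lowest median pileup over all summits of these autosomes, 14 against 27 in the Ins list. The parts of the inversion and of this lower level in the count of 3 were not tested.

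**Figure D5:**
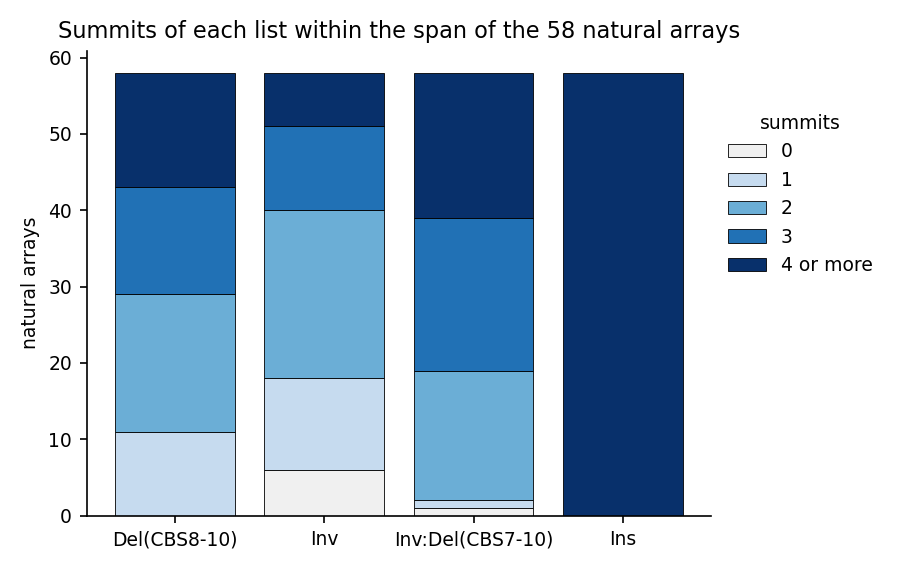
Number of the 58 natural arrays with 0, 1, 2, 3, or 4 or more summits of each list within their span. The Ins list, which chose the arrays, has 4 or more in all 58 by construction, and 6 arrays have none in the Inv list.

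The lists differed in level, which moved with the number of summits found. The genome background, the commonest background of a list, was 0.553, 0.19 and 1.327 reads per position in the Del(CBS8-10), Inv and Inv:Del(CBS7-10) lists and 0.858 in the Ins list. Within the spans of the 58 arrays these lists had 156, 123 and 184 summits, and the Ins list 254. Their median pileup was 30, 25 and 78, against 41.5 in the Ins list, where all summits of the same autosomes had 18, 14 and 36, against 27. Array summits were thus above the average of their list in pileup in each of the 4, by 1.67, 1.79 and 2.17 times, and by 1.54 times in the Ins list. Their background exceeded the average by more, at 3.39, 3.69 and 4.27 times, and 3.20 times in the Ins list. The part of the differing levels in the shares found was not tested.

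The 3 natural arrays that formed again in every list were at AI506816, Armc5 and near Gm9637. The array near Gm9637 had a median background of 569.3 in the Ins list and is described below with the other arrays above 100. The AI506816 array, at chr5:23711842-23714104, has 4 summits in 4 intervals, and AI506816 starts within it. Its pileups were 101, 34, 25 and 22 in the Del(CBS8-10) list, 25, 48, 35 and 28 in the Inv list and 191, 141, 139 and 155 in the Inv:Del(CBS7-10) list, against 158, 101, 67 and 69 in the Ins list. All 4 summits were in every list, but their order of strength was not the same, the summit strongest in the Ins list being the weakest in the Inv list. Armc5, a gene for an armadillo-repeat protein, lies at an array of 5 summits at chr7:128237291-128239104. Its pileups were 14, 26, 21 and 34 in the Del(CBS8-10) list, 18, 13, 12 and 17 in the Inv list and 75, 43, 38 and 71 in the Inv:Del(CBS7-10) list, against 40, 37, 31, 48 and 65 in the Ins list. Each other list had 4 of its 5 summits, and a different 4 in each. The only other array with all summits in every list was at Ap5b1, a gene for a subunit of an adaptor complex of endosomes. Its pileups were 21, 31, 90 and 68 in the Del(CBS8-10) list, 31, 21, 103 and 117 in the Inv list and 92, 111, 312 and 346 in the Inv:Del(CBS7-10) list, against 60, 76, 230 and 193 in the Ins list. The same pair of its summits, the last 2 along the chromosome, was highest in all 4 lists.

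The 8 arrays with the highest pileup over background were at Pih1d1 (9.77), Bcl6 (9.52), Ramac (9.06), Ap5b1 (8.996), Gnb1l (8.94), 1110017D15Rik (8.20), Chek2 (8.10) and Zc3h7a (7.46). Bcl6 encodes a transcriptional repressor known from germinal centre B cells. The Bcl6 array, at chr16:23982446-23984383, had pileups of 77, 69, 26 and 57 in the Del(CBS8-10) list, of 47, 34 and 56 in the Inv list and of 249, 141 and 268 in the Inv:Del(CBS7-10) list, against 172, 153, 64 and 148 in the Ins list. Its 3 strong summits were in every list, and that of 64 in the Del(CBS8-10) list alone among the other lists. Pih1d1 encodes a protein of a chaperone complex, and its array, at chr7:45154615-45155729, reaches to the start of Aldh16a1 at its other end. Its pileups were 44, 72, 59 and 24 in the Del(CBS8-10) list, 33 and 66 in the Inv list and 124, 290 and 284 in the Inv:Del(CBS7-10) list, against 104, 195, 166 and 56 in the Ins list. The Ins summit of 166 lies 160 bp from that of 195 and was missing in the Inv list. At Chek2, which encodes a kinase of the DNA damage checkpoint, the Ins summits of 102, 87 and 51 were in every list, and the one of 27 in no other list than Inv:Del(CBS7-10). At 1110017D15Rik the Ins summits of 103, 112 and 98 were in every list and that of 49 in no other list than Inv. At Ramac, which encodes a cofactor of mRNA cap methylation, the 4 Ins pileups were 46, 34, 12 and 28, and only the first was in every list. At Gnb1l, a gene for a WD-repeat protein, they were 67, 14, 57 and 24, with the strongest pair in every list. At Zc3h7a they were 73, 25, 21 and 50, and only the last, next to the printed match, was in every list.

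Further arrays of 5 summits were at Mob3b and Zfp809 and 11998 bp from Idh2. At Mob3b, in a span of 1825 bp, the Ins summits of 67, 43 and 73 were in every list and those of 28 and 23 in none. The array at Zfp809, a zinc-finger gene whose product silences retroviral sequences in mouse embryonic cells, had pileups of 56, 21 and 30 in the Del(CBS8-10) list and 90, 48, 52 and 36 in the Inv:Del(CBS7-10) list, against 90, 68, 78, 62 and 53 in the Ins list. None of its 5 summits was matched in the Inv list, although their −log10 q in the Ins list lay between 14.5 and 48.3. Near Idh2, the gene of a mitochondrial isocitrate dehydrogenase, the Ins pileups were 34, 50, 76, 37 and 162, and those of 76 and 162 were in every list. The 8 summits near Trappc6b, a gene of vesicle transport, were weak for their background, with pileups between 49 and 76 over 24.5 and a median fold of 2.19. The Del(CBS8-10) list held 2 of these 8, the Inv list 4 and the Inv:Del(CBS7-10) list 7.

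The 3 arrays with a background above 100 stood apart from the other 55 in level. They lay at chr14:19415847-19418825, 10755 bp from the pseudogene Gm9637, and at chr9:3012797-3014153 and chr9:3030832-3032911, 24516 and 5758 bp from the microRNA gene Mir101c, and the next highest background was 24.5. Their median backgrounds were 569.3, 459.7 and 404.8, and the array near Gm9637 had 9 summits with pileups from 852 to 5931. The pileup of their summits relative to the Ins list was 1.01 at the median of 17 summits in the Del(CBS8-10) list, with a range of 0.943 to 1.05. For the Inv list it was 0.0692 at the median of 8 summits, with a highest value of 0.0952, and for the Inv:Del(CBS7-10) list 1.44 at the median of 15 summits, with a range of 1.21 to 1.69. At the shared summits of the other natural arrays the median was 0.494, 0.391 and 1.42, and at all shared summits 0.490, 0.375 and 1.63. The ratio in these 3 arrays thus lay above that of the other arrays in the Del(CBS8-10) list and far below it in the Inv list. No list of regions with unspecific high signal was used here.

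Most natural arrays lay at or near protein-coding genes, as did most of all Ins groups. Of the 58, 30 had at least 1 summit within the span of one, 15 more lay within 10 kb and 13 farther away. Counted by group, the 30 are 51.7% of the arrays, and 49.1% of all Ins groups, single summits included, had such a summit. Counted by summit, 42.9% of the 254 array summits lay within a protein-coding gene, against 48.6% of all Ins summits. The 45 arrays at or near a gene are 77.6% of the arrays (interval 65.3 to 86.4), against 68.4% of all Ins groups. This share was 76.7% in groups of 3 summits and 73.8% in groups of 2. By summit, 75.6% of the array summits lay within 10 kb of a protein-coding gene, against 69.1% of all Ins summits. Array summits lay near gene starts in a larger share than summits that stood alone, and in a like share to groups of 3. On autosomes other than 11 and 18, 26.0% of 250 natural array summits lay within 1 kb of a gene start, against 26.1% in groups of 3 summits, 16.8% in groups of 2, 8.52% of summits that stood alone and 10.7% of all summits. Counted by array, 22 of 57 (38.6%, interval 27.1 to 51.6) had a summit that close, against 29.3% of groups of 3. In 14 arrays a gene start lay between the first and the last summit, among them Alyref2, Chd1l, Mob3b, AI506816, Chek2, Ramac, Zfp809, Zc3h7a and Ap5b1.

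Few genes of the lists chosen here were near a natural array under this rule, and few genes of these autosomes as a whole. Of 43955 genes on these autosomes, 95 (0.216%) had an array within 10 kb. None of 26 imprinted genes had one, nor any of 29 Hox genes of the HoxA, HoxC and HoxD clusters, nor any of 57 clustered protocadherin genes. Among 17 pluripotency genes it was Sox2, and among 8 CTCF and cohesin genes Nipbl. With lists of this size, 0 is the count that a share of 0.216% gives, and a count of 1 rests on 1 array.

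The array near Sox2, a transcription factor of the embryonic stem cell state, lies within the noncoding gene Sox2ot, at chr3:34639389-34641151 and 8844 bp from Sox2. Its summits found again had pileups of 53 and 32 in the Del(CBS8-10) list, 33 and 49 in the Inv list and 132, 126 and 57 in the Inv:Del(CBS7-10) list, against 111, 30, 25, 71 and 25 in the Ins list. The Ins summits of 111 and 71 were in every list, and of the 3 weak ones 1 was found, in the Inv:Del(CBS7-10) list. The array at Nipbl, which encodes the loader of cohesin, lies at chr15:8444676-8446576 and overlaps both Nipbl and LOC102634078. Its pileups found again were 28 and 29 in the Del(CBS8-10) list. The Inv list had 13, and the Inv:Del(CBS7-10) list 55 and 23, against 21, 67, 13, 20 and 35 in the Ins list. A single summit of this array, that of 67, was in every list.

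The 32 groups with 4 summits in 3 intervals, which are members, had a median pileup of 38.3, a background of 6.23 and a −log10 q of 17.3. The 12 with 4 summits in 4 intervals, also members, had 30, 5.22 and 11.9. The 57 groups with 4 summits in 2 intervals, which are not, had 46.5, 6.81 and 19.4. The 189 groups with 3 summits in 3 intervals, also outside, had 25, 3.78 and 11.03. The group outside the rule with the most summits had 9 in 1 interval, at chr1:24612353-24615960 near Gm10222, with a median pileup of 112 over a background of 48.96.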

How the data were processed

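CTCF CUT&RUN was done on 4 mESC lines, 1 library per genotype, and each deposited peak list comes from a single library. MACS2 2.2.7.1, bedtools 2.30.0, Bowtie2 2.4.5, cutadapt 4.1, Picard and the build mm10 are named in the submitters' processing notes. Their settings, read filters and a control library, if any, were not stated in the sources used here. Per the files' chromosome names, chromosome 11 is present as a pair of sequences, and other chromosomes keep their mm10 coordinates. The lists have no header line, and the meaning of the columns was taken from the narrowPeak layout and the values. The deposited score is the −log10 q times 10. The deposited fold, a ratio, sets the pileup at the summit against the local background. The −log10 p-value and −log10 q-value are the authors' own. Read depth was not stated.

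From the deposited lists, background and whole-number pileup were recovered, peak by peak, from fold and −log10 p (tolerance 0.001), with a solution for 100% of peaks in each list. The step was tested on fold and −log10 p rebuilt from the recovered values with the same formula. Such a test cannot show that the formula is that of the peak caller. Summits within 100 bp counted as found. Genes and promoter windows came from the RefSeq tables of GRCm38.p6, matched by position, with 49997 genes, and promoter windows of chromosome 18 were not used here. Intervals are 95% Wilson intervals. Python 3.11.15, NumPy 2.4.6, pandas 2.3.3, SciPy 1.17.1 and Matplotlib 3.10.9 were used, and positions are counted from 1.

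Members, gene lists and comparisons were chosen with earlier results of these data known. Named in full were the 8 arrays with the most summits, ties going to the higher median −log10 q (5 of the 11 arrays with 5 summits, picked for strength), the 8 with the highest pileup over background, those with 6 summits and those within 10 kb of a listed gene, with arrays seen in at most 1 other list also eligible, of which there were 0. That gave 18 arrays. AI506816, Chd1l and Cpne5 were added after their values were seen. Alternatives changed the gap, the number of summits, the interval condition, the strength of peaks, the matching and the gene distance. Leaving out arrays of high background and the shorter motif were chosen after the data were seen.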

Additional observations from a re-analysis of the deposited data

Results flagged for a closer look

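Chromosome 11 was outside the rule, since it carries the edits and is present as a pair of sequences in the peak lists. Under the same rule the Ins list held 5 arrays besides the inserted one on the chromosome 11 with the array and 7 on the Del copy. They were looked at because they lie in data that the comparisons leave out. At 2 places both copies had an array, near 3124166 (median pileup 109.5, and 105.5 on the Del copy) and near 50587223 (42 and 37). Where both copies hold the same stretch, the values of the copies cannot be told apart. The Inv list had an array at 3124169 and 3124177, 1 on each copy, and the Inv:Del(CBS7-10) list at 50587218 and 50587214. On chromosome X the rule gave 1 array each in the Del(CBS8-10) and Inv:Del(CBS7-10) lists, against 0 in the Ins list.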

How the results depend on the processing

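The number of natural arrays depended on the rule. Against 58 arrays, a gap of at most 500 bp gave 6, a gap of 2000 bp 204, a −log10 q of at least 10 left 13, the 20000 strongest peaks 1, at least 5 summits 14 and no condition on intervals 147. Counting summits closer than 50 bp as 1 left 58. Arrays that formed again in the Del(CBS8-10), Inv and Inv:Del(CBS7-10) lists were 29, 18 and 39 with 3 summits in the span as the condition, against 16, 6 and 15. Among the 46 arrays with a background no higher than that of the inserted array, a setting added with the data in view, they were 7, 2 and 10. In those 46 arrays, 53.1%, 39.8% and 62.8% of summits were found in the 3 lists and 29.1% in every list, against 35.04%. The shares found in the 3 lists and in every list were 66.9%, 53.1%, 74.8% and 44.1% within 250 bp. They were 76.0%, 62.2%, 83.1% and 54.3% with any overlap of intervals, and 85.3%, 62.8%, 84.0% and 54.5% at a −log10 q of at least 10. Without the Inv list, 50.4% were found in both others. The shares of all Ins summits under these settings are not given here, so these changes are not set against those of other summits. For a −log10 q of 10 and more, the shares of other summits are given bin by bin in the Results. With 2 kb around gene ends, 22 arrays (37.9%) had a protein-coding gene, against 45. That share was 34.6% in groups of 3 summits, 24.9% in groups of 2 and 15.8% of all Ins groups. Counted by summit, 36.2% of array summits and 16.9% of all Ins summits lay that close to an end. The 6-summit array had a median distance of 266 bp, against 446.5 bp. The median pileup of array summits was between 31 and 56 under other settings, against 41.5. Their median background was between 5.9 and 8.92, against 6.52. Their median distance was otherwise 453 or 482 bp, against 446.5 bp. No paired analysis was possible because each genotype has 1 library. With 1 library per genotype, a missing summit cannot be told apart from a peak below the threshold of a shallower list.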
